A study of Mus musculus with 6 samples.

Results

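Numbered Zfp genes, the mouse genes whose symbol is Zfp followed only by digits and most of which encode zinc finger proteins, were described in glioma cells given siRNA against YY1, itself a zinc finger protein. Members were all such symbols, chosen by their deposited counts, 200 or more summed over the 6 samples, which took 274 of 361 numbered Zfp symbols, among 24982 gene symbols in all. Another 26 numbered symbols had 0 counts and 61 had at least 1 count but fewer than 200. Just outside the minimum were Zfp963, Zfp808 and Zfp619 with 179, 182 and 197 summed counts, and just inside were Zfp458, Zfp112 and Zfp493 with 200, 205 and 218. All 274 members passed the expression filter of the edgeR fit, which tested 12148 genes.

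RNA was sequenced from KMWT1, a mouse glioma line kept in DMEM with 10% FBS. Cells of 3 samples (1, 2 and 3) had received a control siRNA and cells of 3 others (4, 5 and 6) a SmartPool siRNA against YY1, a pool of several siRNAs, and RNA of both groups was taken 48 hours after transfection. The genotype of the line is not given in the labels beyond its name, and the labels do not call the samples of a group separate cultures. The p-values therefore cover only sample-to-sample spread, part or all of which may be technical. In bulk RNA, fewer cells expressing a gene and less RNA per cell cannot be told apart.

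C2H2 zinc finger proteins bind DNA through tandem fingers, each held by a zinc ion between a pair of cysteines and a pair of histidines, and the order of fingers sets the sequence that is read. Many of the numbered Zfp genes also encode a KRAB box, which recruits the corepressor Trim28 (KAP1) and with it the histone methyltransferase Setdb1, and these KRAB zinc finger proteins are best known for silencing retroelements and guarding imprinted loci. They multiplied by tandem duplication and many sit in clusters of closely related copies. YY1 is a C2H2 protein of another family that activates or represses promoters through a short motif centred on ATGG.

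Counts in genes ranged from 15738457 in sample 6 to 20644057 in sample 1, so that 3 counts, the limit that a count of 0 allows, equal 0.196 to 0.144 CPM, the usual unit for counts scaled by library size and here also by composition. Yy1 itself stood at 127, 128 and 126 CPM in the controls and at 81.2, 77.6 and 78.6 CPM with YY1 siRNA. That is -0.68 on the log2 scale (SE 0.064, edgeR adjusted p = 0.00154). Much of the Yy1 RNA thus remained, and these counts hold no measure of YY1 protein. Its relative Yy2 had 7.17, 6.44 and 8.10 CPM against 6.03, 8.87 and 8.68 CPM, and Zfp42, the remaining relative, had 0 counts. Of 11 glioma stem and progenitor markers 7 had 10 CPM or more, and Olig1, Olig2, Prom1 and Fabp7 had 0 counts. Among markers of other cell types, 4 of 6 for fibroblasts and pericytes reached 10 CPM, summing to 955 to 1115 CPM in the controls and 806 to 1026 CPM with YY1 siRNA. For neurons it was 0 of 5, and for astrocytes, oligodendrocytes, microglia and endothelium it was 1 each.

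The members were mostly genes of modest level. Mean CPM ran from 1.76 to 273 with a median of 13.5, and 164 members reached 10 CPM while 11 reached 100. Per length, the median was 2.72 CPM per kilobase of exon, against 6.43 over all tested genes. Of the 272 members with an annotated protein, 153 held a match to the KRAB A box and 119 did not. The latter are called members without the box, though a divergent box could score too low to match. Members with the box had a median of 12 C2H2 fingers and 2.15 CPM per kilobase, and those without it a median of 7 fingers and 4.08 CPM per kilobase. The greatest number of fingers was 36, in Zfp142, named here after its values were seen. No C2H2 finger was found in 7 members, among them Zfp36, whose fingers are of the CCCH type, and Zfp703 and Zfp503, which are related to each other. Some counts are shared property of the family: 28 members had 20% or more of their 50-base transcript windows in common with another gene, and their values are uncertain. Over all members, those 28 included, 51 overlap a gene on the same strand and 93 a gene on the opposite strand, whose reads may not have been told apart.

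Per length, the highest member was Zfp52, a KRAB gene on chromosome 17, at 45.0 CPM per kilobase. Next came Zfp740 at 39.9, Zfp706 at 33.5, Zfp703 at 29.5, Zfp207 at 26.9, Zfp106 at 26.2, Zfp260 at 22.4 and Zfp395 at 19, none of which has a KRAB box match. For Zfp740 and several others of these the groups were close. Zfp740 gave 204, 207 and 198 CPM in the controls against 212, 208 and 190 CPM with YY1 siRNA, a log2 fold change of 0.0033 (SE 0.070). Zfp706, a very small protein with a single finger, gave 161, 164 and 167 CPM against 168, 160 and 181 CPM, and for both genes the groups overlapped. Zfp703, a transcriptional cofactor studied in breast cancer, had a log2 fold change of -0.067 (SE 0.080), Zfp260 one of -0.074 (SE 0.066) and Zfp395 one of -0.083 (SE 0.075).

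No member differed between the groups past the adjusted threshold of 0.05. That count was 0 of 274 with edgeR, DESeq2 and limma-voom alike, where edgeR called 0.00823% of all tested genes, DESeq2 0.153% and limma-voom 0.00823%. At an unadjusted edgeR p under 0.05 there were 39 members (14.2%), 22 higher and 17 lower with YY1 siRNA, against a background of 10.8% of all tested genes (5.38% higher and 5.46% lower). DESeq2 gave 27 such members, 20 higher and 7 lower (background 5.53%, 3.36% higher and 2.16% lower). That background was taken over 17046 genes, without the expression filter that edgeR and limma-voom had. It includes genes of low counts, unlike the members, so it does not compare directly with the other backgrounds. With limma-voom there were 37 such members, 20 higher and 17 lower (background 11%, 5.52% in each direction). The split turned with the libraries: it was 48 higher and 15 lower without sample 4 (background 10.7% and 8.42%), 13 and 21 without sample 5 (5.7% and 6.03%), and 10 and 24 without sample 6 (3.17% and 5.03%). The 3 samples of one group did not overlap with those of the other for 50 members (18.2%), 28 higher and 22 lower, where the background was 16.3% (7.36% higher and 8.91% lower). The median log2 fold change was 0.023 (quartiles -0.074 and 0.13), beside 0.0007 for all tested genes (quartiles -0.088 and 0.11), and it fell to -0.017 without sample 6.

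Error set how closely each change was bounded. The 95% interval of the fold change lay within 1.5-fold in either direction for 230 members (83.9%, beside 82.2% of all tested genes) and within 2-fold for 273. Within 1.25-fold it lay for 99 members (36.1%), fewer than the 51.7% of all tested genes. A single member, Zfp128, had a fitted fold change of 1.5 or more in either direction.

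**Figure D1:**
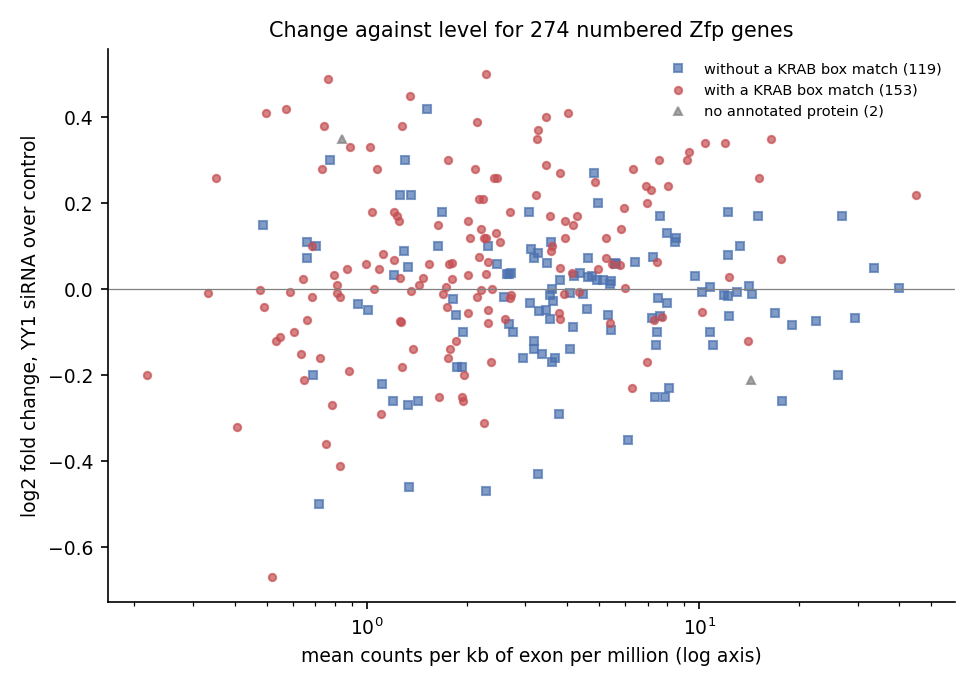
Log2 fold change of YY1 siRNA over control siRNA (vertical axis) against mean CPM per kilobase of exon on a log axis (horizontal axis), with 1 point for each of the 274 members, coloured by KRAB box match. Most points lie near 0 at every level, Zfp128 is the lowest at -0.67, and Zfp52, at 45.0 CPM per kilobase, is the farthest to the right.

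The members nearest to the threshold were a mixture of KRAB and other zinc finger genes. Members named by p or by change were picked in these same samples, so groups that do not overlap are no separate support for them. Zfp9, a KRAB gene with 12 fingers on chromosome 6 (mm10 chr6:118461950-118479320, minus strand, ENSMUSG00000072623.6), had 43.1, 46.5 and 43.3 CPM in the controls and 55.3, 51.8 and 57.0 CPM with YY1 siRNA. Every treated sample was above every control. The log2 difference of 0.30 (SE 0.072) had the smallest p of any member, with an edgeR adjusted p of 0.177. Zfp367, which has 2 fingers and no KRAB box match, had 24.9, 23.0 and 24.3 CPM against 29.0, 28.6 and 29.8 CPM. Its samples did not overlap either, at 0.27 (SE 0.077, edgeR adjusted p = 0.261). Zfp579, with 8 fingers and no KRAB box match, went from 5.29, 5.45 and 5.45 CPM to 6.61, 7.59 and 7.51 CPM, again with every treated sample above the controls (log2 fold change 0.42, SE 0.12). Zfp944 and Zfp7, both KRAB genes, also had treated samples wholly above the controls, with log2 fold changes of 0.41 (SE 0.13) and 0.25 (SE 0.083).

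Among members that were lower with YY1 siRNA, Zfp362, a protein with 6 fingers and no KRAB box match, had 12.3, 12.3 and 9.84 CPM in the controls and 9.33, 8.39 and 7.77 CPM after treatment. All treated samples lay below all controls (log2 fold change -0.43, SE 0.12, edgeR adjusted p = 0.261). Zfp341, known as an activator of STAT3 expression (mm10 chr2:154613297-154646821, plus strand, ENSMUSG00000059842.12), had 7.60, 9.29 and 9.52 CPM in the controls against 6.40, 7.17 and 5.35 CPM. The groups did not overlap, at -0.47 on the log2 scale (SE 0.14, edgeR adjusted p = 0.265). Zfp146 (OZF), a protein made up almost entirely of fingers, had 64.1, 59.8 and 66.0 CPM against 56.6, 52.8 and 48.8 CPM, and Zfp180, with 12 fingers, had 38.8, 39.2 and 38.9 CPM against 34.1, 30.5 and 33.7 CPM. For both the treated samples were the lower ones without overlap, by log2 fold changes of -0.26 (SE 0.077) and -0.25 (SE 0.075). Zfp128, a KRAB gene with 7 fingers, had the greatest change in size, from 2.26, 2.96 and 2.54 CPM to 1.31, 1.59 and 2.02 CPM (log2 fold change -0.67, SE 0.21, edgeR adjusted p = 0.306).

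The largest fitted changes came with wide errors. Among members with an unadjusted p under 0.05, the largest positive changes were fitted for the KRAB genes Zfp85 at 0.50 (SE 0.19), Zfp551 at 0.49 (SE 0.21) and Zfp707 at 0.45 (SE 0.15), followed by Zfp579, and by Zfp101, a further KRAB gene, at 0.42 (SE 0.19). None of the 5 passed the adjusted threshold. Zfp85 shares 24.2% of its windows with other genes, most often Zfp273, so its counts are uncertain. The largest negative changes after Zfp128 were fitted for Zfp11 at -0.50 (SE 0.17), Zfp341, Zfp691 at -0.46 (SE 0.17) and Zfp362. Zfp11 and Zfp691 have no KRAB box match, and in both the treated samples lay below the controls.

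**Figure D2:**
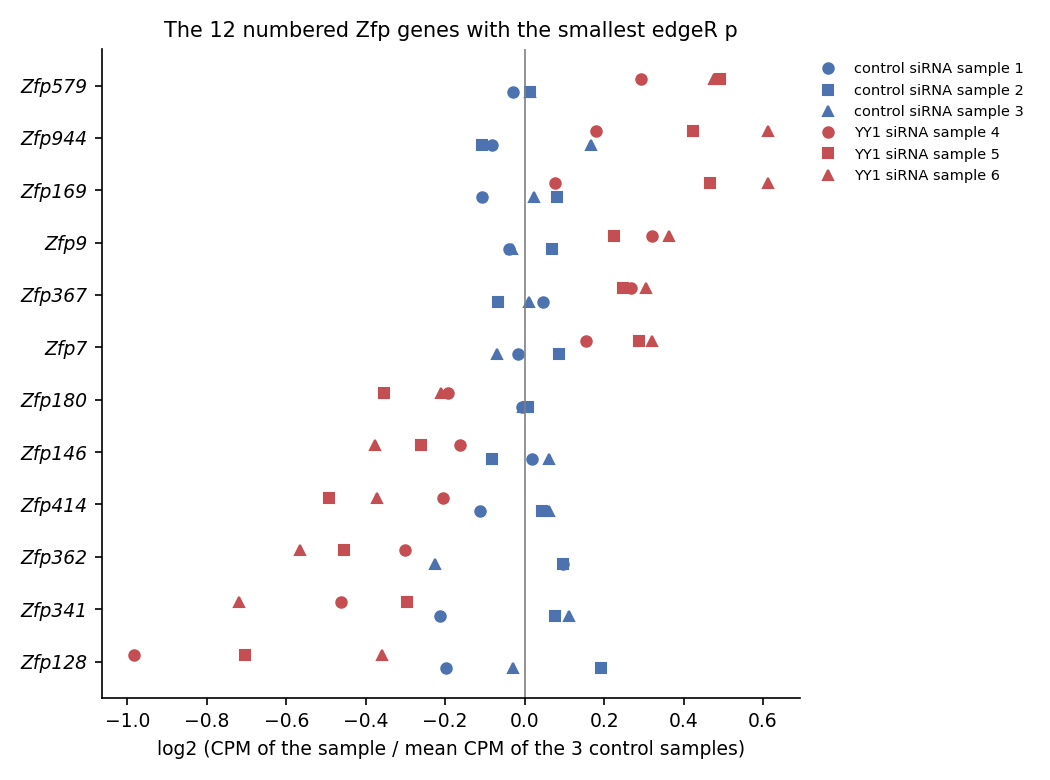
The 12 members with the smallest edgeR p, each sample drawn as log2 of its CPM over the mean of the 3 control samples, in blue for control siRNA and red for YY1 siRNA. Red and blue points do not overlap in 11 of the genes, and in Zfp169 sample 4 lies among the controls. The genes were picked by p in these same samples, which favours groups that do not overlap (16.3% of all tested genes).

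Zfp169, a KRAB gene with 17 fingers on chromosome 13 (mm10 chr13:48487647-48513451, minus strand, ENSMUSG00000050954.15), was the sole member to pass the threshold in any of the fits run. Its levels were 22.1, 25.2 and 24.2 CPM in the controls and 25.1, 32.9 and 36.4 CPM with YY1 siRNA. Samples 5 and 6 were above every control and sample 4 was among them, giving 0.40 on the log2 scale (SE 0.12, edgeR adjusted p = 0.306). Without sample 4 it was 0.55 with an edgeR adjusted p of 0.04998, in a fit that called 0.335% of all tested genes. In that fit 63 members (23%) had an unadjusted p under 0.05, with 17.5% of members higher and 5.47% lower. The background was 19.1%, with 10.7% higher and 8.42% lower.

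KRAB members and the others took different values in the individual libraries. Among the 153 KRAB members, 21 (13.7%) had an unadjusted p under 0.05, 17 higher and 4 lower with YY1 siRNA, 96 had a log2 fold change above 0 (62.7%, beside 50.2% of all tested genes), and the median was 0.057. Among the 119 members without the box, 18 (15.1%) had such a p, 5 higher and 13 lower, 55 were above 0 (46.2%), and the median was -0.011. Over all tested genes 10.8% had such a p. For the members without the box the median turned to 0.015 without sample 4, with 13 higher and 14 lower (background 10.7% and 8.42%). It was -0.044 without sample 5, with 3 higher and 17 lower (background 5.7% and 6.03%), and 0.016 with offsets for length and GC content. The difference between the classes was not tested. Leaving out the KRAB members that share 20% or more of their windows left 127 with a median of 0.059.

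The KRAB median rested on which libraries entered. As a median log2 level relative to each gene's mean over the 6 samples, KRAB members stood at -0.073, -0.069 and 0.058 in samples 1, 2 and 3 and at -0.11, 0.023 and 0.22 in samples 4, 5 and 6. Sample 6 was the highest and sample 4 the lowest, both in the treated group, and the groups overlapped. Sample 6 was the highest library for 56.9% of KRAB members, against 24.4% of members without the box and 27.1% of all tested genes, and sample 4 was the lowest for 36.6% of KRAB members, against 26.1% and 17.7%. Members without the box stayed between -0.046 and 0.035 in every library. The KRAB median was 0.14 without sample 4, with 35 higher and 1 lower at an unadjusted p under 0.05, in a fit where 10.7% of all tested genes were higher and 8.42% lower. It was -0.020 without sample 6, with 7 higher and 12 lower, where the shares of all tested genes were 3.17% and 5.03%.

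Other properties of the libraries took a similar order. Counts outside all genes made up 7.99%, 8.64% and 9.03% of the total in samples 1, 2 and 3 and 7.87%, 10.7% and 11.3% in samples 4, 5 and 6, so this share too was lowest in sample 4 and highest in sample 6. Of 7 RNAs known to stay in the nucleus, the 5 that were tested (Malat1, Neat1, Kcnq1ot1, Airn and Tug1) had median levels of -0.10, -0.18 and 0.14 in the controls and -0.36, 0.20 and 0.25 with YY1 siRNA, again lowest in sample 4 and highest in sample 6. With this share entered as a covariate, the KRAB median was -0.053, with 3 higher and 14 lower, and that of the other members -0.029. Over all members this fit gave 6 higher and 28 lower, beside 2.89% and 4.82% of all tested genes. KRAB members also had a lower median GC content in their exons, 41.2% against 50.6%, and with offsets for length and GC content the medians were 0.019 and 0.016. Sample 6 had the fewest counts, and its deposited table alone is not marked as combined. The part of these library properties in the KRAB values was not tested beyond these fits.

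**Figure D3:**
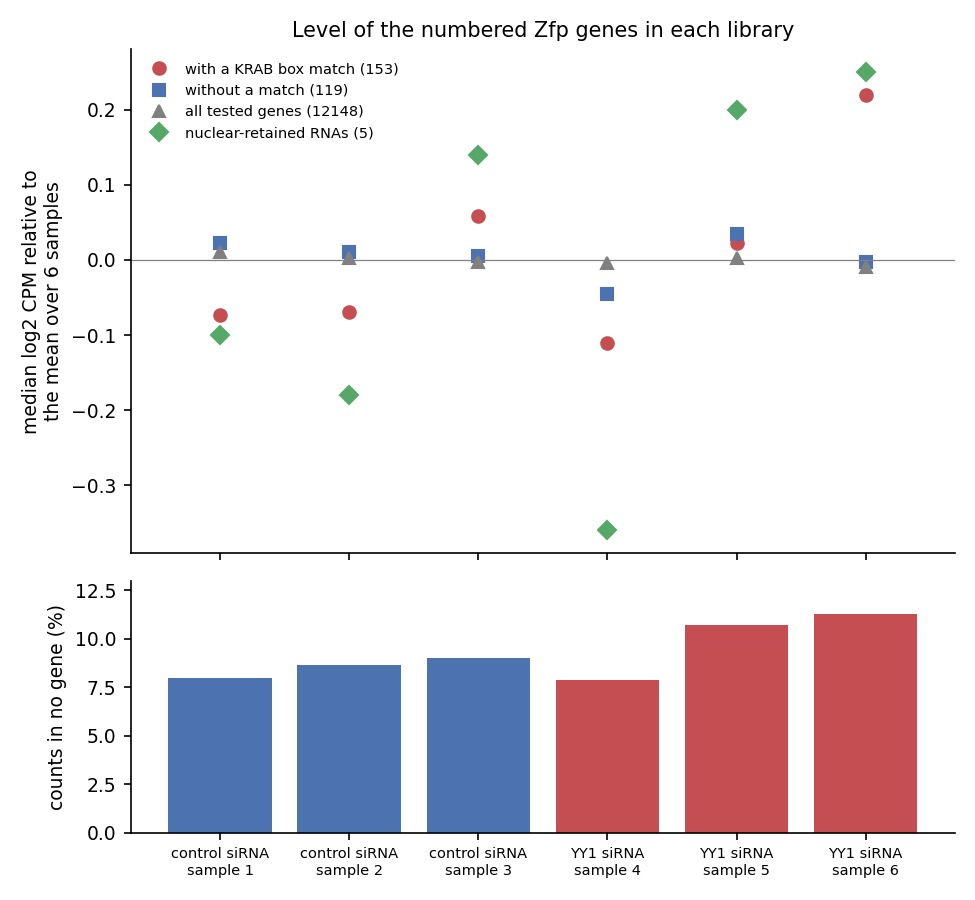
Upper panel, median log2 CPM relative to the mean over 6 samples for KRAB members, members without the box, all tested genes and 5 nuclear-retained RNAs, in each library. Lower panel, percent of counts in no gene in the same libraries. KRAB members and nuclear-retained RNAs are lowest in sample 4 and highest in sample 6, at -0.11 and 0.22 for the former, while members without the box stay near 0.

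The members were clustered in the genome, with 70 on chromosome 7, 39 on chromosome 17, 22 on chromosome 13 and 17 on chromosome 8. Counting only members with no other protein-coding gene between them, 118 lay in 42 runs of neighbours, of which 91 were KRAB genes. The longest run held 8 members on chromosome 17 (mm10 chr17:21707741-22225616): Zfp760, Zfp229, Zfp820, Zfp995, Zfp942, Zfp943, Zfp947 and Zfp994. Their median levels were -0.089, -0.067 and 0.061 in the controls and -0.26, 0.073 and 0.30 with YY1 siRNA, so that the treated samples spanned the controls. Sample 6 was the highest library for 6 of the 8 (27.1% of all tested genes) and sample 4 the lowest for 6 (17.7%). The median log2 fold change was 0.087, and 7 were above 0, beside 50.2% of all tested genes. Against a background of 10.8%, Zfp820 alone had an unadjusted p under 0.05. It had 22.6, 23.5 and 24.5 CPM in the controls and 23.9, 28.8 and 31.0 CPM with YY1 siRNA (log2 fold change 0.24, SE 0.099, edgeR adjusted p = 0.42).

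The neighbouring run of 7 on the same chromosome (mm10 chr17:21383748-21664966), chosen after its values were seen, held Zfp677, Zfp54, Zfp51, Zfp53, Zfp52, Zfp948 and Zfp983. All 7 had a log2 fold change above 0 (50.2% of all tested genes), with a median of 0.30. Against a background of 10.8%, Zfp53 alone had an unadjusted p under 0.05. The 7 genes were all highest in sample 6 (27.1% of all tested genes), and 6 of them were lowest in sample 1 (17.7%). Median levels were -0.31, -0.13 and 0.042 in the controls and -0.033, 0.071 and 0.40 with YY1 siRNA, so control sample 3 lay above treated sample 4. Zfp52, the member with the highest level per length, belongs to this run, at 125, 129 and 140 CPM in the controls and 143, 134 and 183 CPM with YY1 siRNA. Sample 5 lay below control sample 3, for a log2 difference of 0.22 (SE 0.11, edgeR adjusted p = 0.485). Not every run had this order of libraries. In the run of 6 on chromosome 6 the median log2 fold change was 0.004, and sample 6 was highest for 2 genes and lowest for 3. In the runs of 5 on chromosomes 13, 7 and 9, sample 6 was highest for 2, 0 and 2 genes. By median level it was still the highest library on chromosomes 13 and 9, at 0.40 and 0.26. On chromosome 7 it stood at 0.073, below sample 5 at 0.11. In the run on chromosome 9 all 5 genes were above 0, with a median log2 fold change of 0.24. There 2 of the 5 had an unadjusted p under 0.05, both higher, beside 10.8% of all tested genes.

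**Figure D4:**
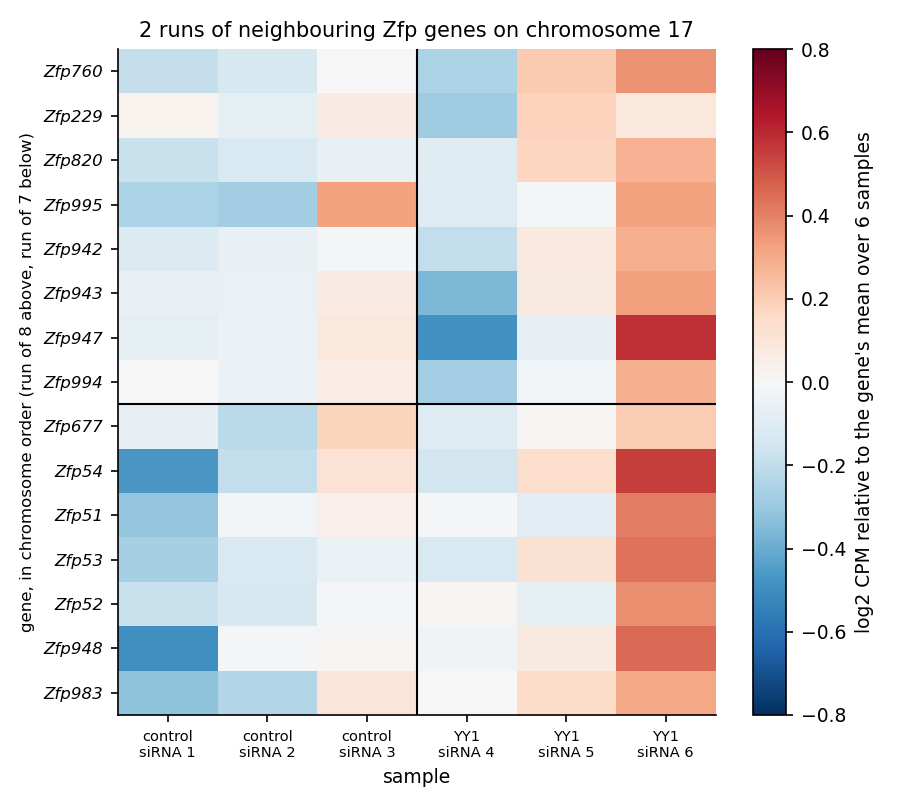
Log2 CPM of each gene relative to its mean over the 6 samples (colour scale) in the run of 8 (upper rows) and the run of 7 (lower rows) neighbouring members on chromosome 17, with samples in columns and control siRNA on the left. Sample 6 is the warmest column in both blocks, and sample 4 is the coldest in the run of 8 while sample 1 is the coldest in the run of 7.

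Members with a known function were next taken by role. Of 6 repressors of imprinted genes and retroelements, all members, 1 had an unadjusted p under 0.05 (background 10.8%, as for the lists that follow) and the median log2 fold change was 0.035. Over the other fits the median ran from -0.021 with the covariate to 0.090 without sample 4, and the number from 0 to 2. Zfp57, which keeps DNA methylation at imprinted control regions, had 9.72, 11.2 and 11.7 CPM in the controls and 11.4, 15.0 and 15.2 CPM with YY1 siRNA. Samples 5 and 6 were above all controls and sample 4 was not, for a log2 difference of 0.35 (SE 0.13, edgeR adjusted p = 0.362). Zfp445, which acts at imprinted loci together with Zfp57, had 108, 106 and 110 CPM against 83.9, 107 and 107 CPM, where sample 4 alone was clearly lower. Zfp809, which silences retroviruses through their primer binding site, had a log2 fold change of -0.011 (SE 0.093), and Zfp568, a repressor of a placental Igf2 transcript, one of 0.081 (SE 0.13).

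A list of KRAB corepressors and other silencing factors gave no call either. Of the 20 tested, 0 passed the adjusted threshold and 1 had an unadjusted p under 0.05, with edgeR, DESeq2 and limma-voom alike. The median log2 fold change was 0.028. Without sample 4 the number with such a p was 5, all higher, with a median of 0.087 (background 19.1%). The median turned to -0.015 without sample 5 and to -0.034 with the covariate. Uhrf1, which brings Dnmt1 to newly replicated DNA, was the gene with an unadjusted p under 0.05 over all samples, at 41.1, 47.2 and 53.3 CPM in the controls and 59.2, 56.8 and 54.6 CPM with YY1 siRNA. Every treated sample was above the controls, though by a narrow margin (log2 fold change 0.27, SE 0.091, edgeR adjusted p = 0.334). Atf7ip, a partner of Setdb1, had a log2 fold change of -0.10 (SE 0.073), Morc2a, a partner of the HUSH silencing complex, 0.11 (SE 0.088), and Cbx1, an HP1 protein, 0.084 (SE 0.069). Trim28 itself, named after its values were seen, had 259, 257 and 244 CPM against 262, 243 and 235 CPM, overlapping groups with a log2 fold change of -0.039 (SE 0.072).

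Factors that bind promoters, 7 in all and all members, had 0 with an unadjusted p under 0.05 by edgeR, DESeq2 and limma-voom, a median log2 fold change of 0.032, and 6 above 0. Without sample 4 it was 2, 1 higher and 1 lower (background 19.1%), with a median of 0.083. Zfp143, which binds promoters and loop anchors, had 39.2, 40.8 and 39.6 CPM against 39.5, 33.7 and 36.1 CPM, with overlap (log2 fold change -0.13, SE 0.079). Zfp281, a factor of embryonic stem cells, had 40.8, 40.7 and 38.9 CPM against 41.7, 44.6 and 43.4 CPM. Its groups did not overlap, though by a narrow margin, at 0.11 (SE 0.070). Zfp148 (ZBP-89), which binds GC-rich promoters, stood at 0.12 (SE 0.075), and Zfp335 at 0.032 (SE 0.069).

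The 9 partners of chromatin complexes had 0 with an unadjusted p under 0.05 by those tools and a median of -0.059, with 7 below 0. Without sample 5 it was 2, both lower (background 11.7%), with a median of -0.10, while the median was -0.011 without control sample 1, -0.037 without sample 4, -0.028 without sample 6 and -0.0047 with offsets for length and GC content. The most abundant by CPM were Zfp516, an activator of brown fat genes, with a log2 fold change of -0.011 (SE 0.069), Zfp609 with 0.0053 (SE 0.085), Zfp462 with -0.13 (SE 0.092), and Zfp217, a partner of the CoREST and LSD1 complex, with -0.014 (SE 0.067). Each of these 4 had overlapping groups.

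Among 11 members that act on RNA, translation, ubiquitin or SUMO, 1 had an unadjusted p under 0.05 and the median was 0.019, within a range over the other fits of -0.0073 with the covariate to 0.058 without control sample 1. The number was 0 without control sample 1 or 3 and 3 without sample 4 (background 19.1%). Zfp106, an RNA-binding protein needed by motor neurons and muscle, was that gene and had the highest CPM of all members, at 303, 279 and 292 in the controls and 249, 272 and 241 with YY1 siRNA. All treated samples were below the controls (log2 fold change -0.20, SE 0.075, edgeR adjusted p = 0.39). Zfp207 (BuGZ), which carries the checkpoint protein Bub3 to kinetochores, had 166, 168 and 173 CPM against 171, 190 and 209 CPM, with sample 4 among the controls. Its log2 fold change was 0.17 (SE 0.080), while Zfp622, a factor of ribosome assembly, stood at -0.10 (SE 0.074) and Zfp91, a ubiquitin ligase, at -0.020 (SE 0.071).

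Of 8 genes listed as factors of neural and other development, 4 were members. Zfp36, among these 4, is also counted in the preceding list of members that act on RNA. Zfp423 and Zfp536 had 0 counts, Zfp521 had 2 and Zfp618 had 36, all below the minimum. Among the members, with 0 at an unadjusted p under 0.05 by edgeR, DESeq2 and limma-voom, Zfp36 (tristetraprolin), which drives decay of AU-rich mRNAs, had 19.7, 18.0 and 18.4 CPM against 19.0, 18.9 and 18.9 CPM, nearly the same in every sample. Zfp365 had 17.6, 19.2 and 18.5 CPM against 16.9, 16.3 and 16.6 CPM. Its treated samples were below the controls (log2 fold change -0.15, SE 0.084), and Zfp503, a relative of Zfp703 that acts in striatal development, stood at -0.18 (SE 0.12) with overlap.

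YY1's own motif was then looked for in the promoters of the members, since the sequence that YY1 could read bears on which members are near its sites. The letters AANATGGCG, where N is any base, were searched on both strands from 250 bases before to 50 after the start in the RefSeq promoter table for GRCm38.p6, the assembly also called mm10, which holds 229 of the 274 members. The motif was in the window of 20 of them (8.73%), beside 747 of 27025 genes in the table (2.76%). By promoter rather than gene it was 20 of 279 (7.17%) beside 782 of 32851 (2.38%). The shorter AANATGG, which every longer match contains, was in 54 members (23.6%) and in 18.2% of all genes in the table. Unlike the members, the genes in the table were not chosen by their counts. No share over the tested genes was computed, so these shares are of unlike sets. There were 21 sites, of which 6 lay on the gene's strand and 15 on the opposite one, and 17 lay within 30 bases of the start. In 3 members (Zfp341, Zfp830 and Zfp292, the latter 2 chosen after their sequences were seen) the ATG of the site is the annotated start codon. A match describes letters only and is not a measured binding site. The sites of the 6 members with the smallest p are shown 5′ to 3′ on the gene's strand with the motif in capitals, read as CGCCAT followed by NTT where it lies on the opposite strand.
Zfp341: cggcagctccAAGATGGCGcaggcgatct
Zfp414: gagaagcgggAAAATGGCGccgatgtgag
Zfp68: gtctgggagcCGCCATCTTgggctcggtg
Zfp318: CGCCATTTTgcgcggggcc
Zfp763: ccgcccttgcCGCCATGTTtgagtcctgt
Zfp207: taaccccattAAGATGGCGgcagcgcccg

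Their GRCm38.p6 positions were chr2:154613359-154613387 (plus strand) for Zfp341, chr17:33629099-33629127 (plus) for Zfp414, chr5:138619709-138619737 (minus) for Zfp68, chr17:46383516-46383534 (plus) for Zfp318, chr17:33033380-33033408 (minus) for Zfp763 and chr11:80383196-80383224 (plus) for Zfp207. The Zfp318 site lies at the outer edge of its window, which is why fewer bases are shown.

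Of the 20 members with the motif, 5 (25%) had an unadjusted p under 0.05, 1 higher and 4 lower with YY1 siRNA. Of the 209 with a promoter and no motif it was 27 (12.9%), 18 higher and 9 lower, and over all tested genes it was 10.8% (5.38% higher and 5.46% lower). The medians were -0.070 and 0.032, with 7 above 0 and 13 below among motif members, and none of these differences was tested. The 4 lower ones were Zfp341, Zfp414, Zfp318 and Zfp763. Zfp414 had 14.7, 16.4 and 16.6 CPM against 13.8, 11.3 and 12.3 CPM, without overlap (log2 fold change -0.35, SE 0.10, edgeR adjusted p = 0.265). However, 26.3% of its windows are shared with other genes, most often the overlapping Gm20507. Zfp318, a large nuclear protein known from IgD expression in B cells, had 21.3, 21.2 and 21.9 CPM against 15.9, 20.9 and 16.9 CPM, and Zfp763, a KRAB gene, 7.94, 8.57 and 10.1 CPM against 7.24, 6.48 and 7.83 CPM. In both the treated samples were below the controls by a narrow margin, at log2 fold changes of -0.26 (SE 0.10) and -0.31 (SE 0.13).

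The higher one was Zfp68, a KRAB gene with 79.8, 86.3 and 87.0 CPM in the controls and 94.3, 97.9 and 128 CPM with YY1 siRNA. All treated samples were above the controls and sample 6 was highest (log2 fold change 0.34, SE 0.11, edgeR adjusted p = 0.317). By class, the median was -0.079 for the 9 motif members with a KRAB box and -0.061 for the 11 without one. For the 54 members with the shorter AANATGG it was -0.0039, with 26 above 0 and 28 below. Without sample 4 the median of the motif members was -0.011, with 3 higher and 2 lower at an unadjusted p under 0.05 (background 10.7% and 8.42%), and it was -0.028 without control sample 3. It was -0.10 without sample 5 or sample 6, and -0.12 with the covariate, with 0 higher and 6 lower (background 2.89% and 4.82%).

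**Figure D5:**
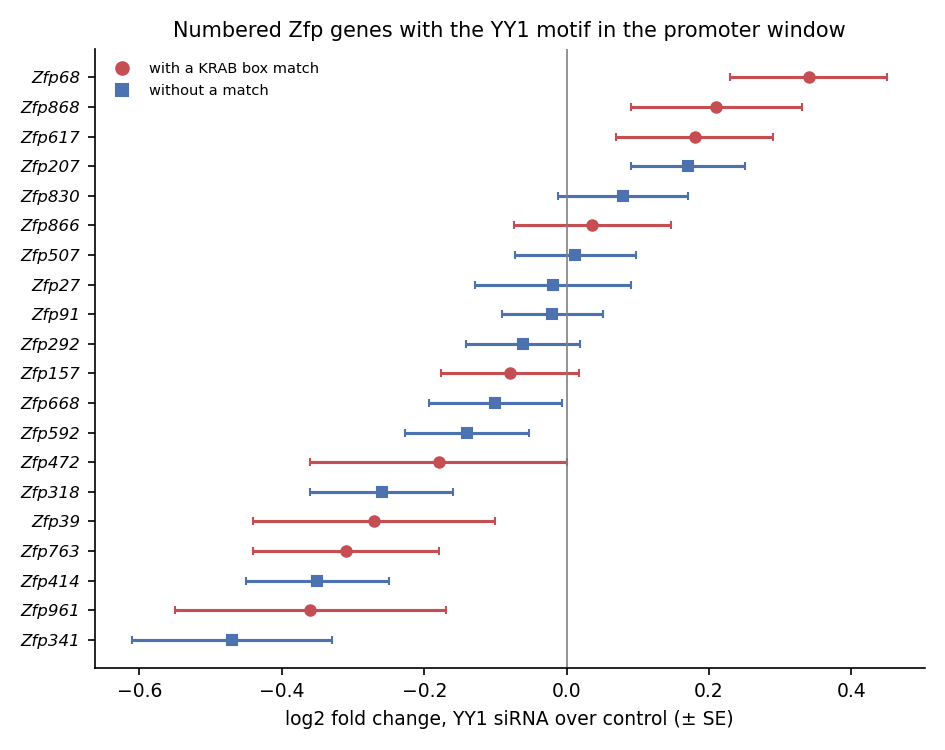
Log2 fold change of YY1 siRNA over control siRNA with its standard error for the 20 members with AANATGGCG in the promoter window, in red with a KRAB box match and in blue without. Bars to the left of 0 outnumber those to the right, 13 against 7, with Zfp341 lowest at -0.47 and Zfp68 highest at 0.34.

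Other zinc finger genes served as a measure of scale. With YY1 siRNA, 5 of 38 tested Zbtb genes, 1 of 9 Zscan genes, 0 of 7 Zkscan genes (0 with DESeq2, 1 with limma-voom), 1 of 12 Klf genes and 3 of 53 other Zfp symbols had an unadjusted edgeR p under 0.05, beside 10.8% of all tested genes. The Zbtb number was 14, 12 of them higher, without sample 4 (background 19.1%) and 2 without sample 5 or sample 6 (11.7% and 8.2%). None of these genes passed the adjusted threshold with edgeR, DESeq2 or limma-voom, though 1 Zbtb gene did with edgeR and no filter on low counts. Their median log2 fold changes were 0.058, 0.043, -0.030, -0.034 and 0.023, where that of the members was 0.023. Within a group, the median SD over the mean of a member's CPM was 6.62% in the controls and 11.1% with YY1 siRNA, so the treated samples were the more variable set.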

How the data were processed

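The authors deposited a separate count table for each of the 6 samples, with reads per gene symbol as whole numbers that were not normalised as far as the values show. STAR 2.6.1a, edgeR 3.30.0 and build mm10 are named, per the submitters' processing notes. The program, annotation and strand setting behind the counts were not given in the sources used here. The 2 rows that name no gene entered neither library sizes nor tests: they hold 7.87% to 11.3% (no gene) and 1.01% to 1.15% (ambiguous) of the counts in genes and those rows together.

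Counts were tested with edgeR 4.0.16 (R 4.3.3): quasi-likelihood F test, two-sided, filterByExpr, TMM, robust dispersion, Benjamini-Hochberg adjustment over 12148 genes. CPM are TMM-normalised. Relative levels are log2 CPM with a prior count of 2. GENCODE M21 on mm10 gave the gene models (all 274 members matched, 98% of symbols). Proteins were translated from those models, where RefSeq proteins had been planned. C2H2 fingers were counted by pattern, and a KRAB box was called at 20 bits or more of a weight matrix over 35 residues built from these proteins. Zfp597 (39.6 bits) was the lowest called and Zfp213 (15.8 bits) the highest not called. Next below were Zfp746 (4 bits), Zfp37 (-7.3), Zfp180 (-7.9), Zfp446 (-12.3) and Zfp956 (-14.9), all counted as without the box.

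Alternatives were RLE factors, library size alone, other filters, DESeq2 1.42.0, limma-voom (limma 3.58.1), edgeR without robust estimation, a covariate for counts outside genes, length and GC offsets (mgcv 1.9.3), leaving out each sample, and a summed count of 1000. Named are Yy1 and its relatives, the 8 highest members per length, the 12 with the smallest p, the 5 greatest rises and falls at an unadjusted p under 0.05, any member past the threshold in any fit, up to 4 per role list, 6 with the motif and the longest run. Members and lists were chosen with earlier results of these data known. On simulated counts for the 12148 genes with 200 changed, edgeR recovered 17% of changes of 1.25-fold (8 false calls), 79% of 1.5-fold (17 false calls) and 93% of 2-fold (13 false calls).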

Additional observations from a re-analysis of the deposited data

Results flagged for a closer look

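The counts assigned to no gene lie outside the measurement compared here. In samples 5 and 6, both with YY1 siRNA, they made up 10.7% and 11.3% of the total, above the highest control sample at 9.03%, while YY1 siRNA sample 4 had the lowest share of all at 7.87%. KRAB members of the Zfp genes were highest in sample 6 and lowest in sample 4, and the part of these counts in that order was not tested beyond the fit with their share as a covariate.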

How the results depend on the processing

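No paired analysis was possible because the groups carry different sample numbers. Yy1 kept its call in every fit, at log2 fold changes of -0.71 to -0.64. No member passed the adjusted threshold in the 9 other fits of all 6 samples. Leaving out 1 sample at a time, 0 to 1 members passed, Zfp169 being that one without YY1 siRNA sample 4 (0.55). The number with an unadjusted p under 0.05 then ran from 22 to 63, with 22 without control sample 1, 23 without control sample 2 and 63 without YY1 siRNA sample 4. The share of all tested genes moved likewise, at 5.4%, 6.38% and 19.1% in those fits. The members' median log2 fold change ran from -0.017 to 0.077, and reversed to -0.017 without YY1 siRNA sample 6 and to -0.039 with a covariate for counts outside genes. It was 0.00051 with library size alone, which moved the median of all tested genes to -0.021. Morc2a reversed to -0.019 with the covariate. At a summed count of 1000 or more, 100 of 175 members were above 0. AANATGG in place of the longer motif took 54 members, with a median of -0.0039, 26 above 0 and 28 below. At an unadjusted edgeR p under 0.05, 4 of them were higher and 6 lower (18.5%, beside 10.8% of all tested genes). The causes were not tested, except that the stricter minimum leaves fewer members and the shorter motif is contained in the longer one. Depth limits the low members, as 3 counts equal 0.144 to 0.196 CPM. In simulated counts, with changed genes drawn from all tested genes at any level, changes of 1.25-fold were mostly not recovered. Those counts were drawn separately for each sample, without shifts shared by many genes of a library.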
